A study of Mus musculus with 21 samples.

Results

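Disallowed genes are transcribed in most tissues but kept low in mature pancreatic β-cells, the insulin-producing cells of the islet. The 10 described here were taken by name from the genes usually listed under that term: Ldha, Slc16a1, Oat, Acot7, Cat, Mgst1, Itih5, Igfbp4, Ndrg2 and Zfp36l1. Of these 10, 8 had a row among the 21913 genes of the expression table, and Slc16a1 and Cat were not analysed here. The rule goes by gene name and not by a measured value, but the names were chosen with earlier results of these data known. In mature β-cells, little lactate dehydrogenase A (Ldha) and little of the monocarboxylate transporter MCT1 (Slc16a1) means that pyruvate is oxidised in mitochondria and that circulating lactate or pyruvate does not trigger insulin release. Catalase (Cat) and other peroxide-removing enzymes are also low there, and fatty acyl-CoA thioesterases such as Acot7 would otherwise draw on the acyl-CoA pool. Immature and dedifferentiated β-cells can regain transcripts of this group.

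The expression data were RNA-seq of sorted β-cells from 3 groups of male mice of mixed SV/129 and C57Bl/6 strain, with 18 libraries in all. All mice carried MIP-CreERTm, a tamoxifen-inducible Cre recombinase driven by the mouse insulin promoter, and a Rosa26 YFP reporter (Rosa26LsLeYFP/ LsLeYFP), and all received tamoxifen, so the controls share the Cre, the reporter and the drug. WT mice (5 libraries) carried no floxed target, Ldb1-KO mice (8 libraries) were Ldb1L/L and Isl1-KO mice (5 libraries) were Isl1L/L. LDB1 is a co-regulator that binds LIM-domain proteins, and ISL1 is a LIM-homeodomain transcription factor of islet cells. WT and Ldb1-KO mice received 5 gavages of 150 µg/g from day 28 and again from day 35 and were 56 days old. Isl1-KO mice received 5 gavages of 100 µg/g from day 28 and were 49 days old. The Isl1 deletion therefore cannot be told apart from the lower dose and younger age in any comparison with the other groups. The labels do not say that libraries came from separate mice, so p-values measure the spread between these libraries, which may be technical.

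The deposited values read as log2 of a normalised read count plus 1, and from the values themselves they lie on nearly 1 common distribution over the libraries. A fold is given here as a ratio of value plus 1, which understates the change of low genes. They are not per length and levels are not compared between genes. Between 13353 and 14129 genes were above 0 in each library, and the first step above 0, read as 1 read, lay between 0.72 and 1.32 on the log2 scale. Targeting was checked first. Ldb1 lay at 7.51 ± 0.22 (SD, n = 5) in WT and 6.40 ± 0.42 (n = 8) in Ldb1-KO, a change of -1.11 (SE 0.18, limma adjusted p = 4.35e-05). Isl1 lay at 9.55 ± 0.11 in WT and 9.33 ± 0.26 (n = 5) in Isl1-KO, a difference of -0.22 (adjusted p = 0.431), and a value over the whole gene does not check an exon deletion. In Ldb1-KO, Isl1 lay at 10.56 ± 0.37 (n = 8), higher than in WT by 1.01 (limma adjusted p = 2.78e-05). The 16 β-cell identity genes had mean log2 levels of 11.31 to 11.67 over the WT libraries, 9.16 to 10.13 over Ldb1-KO and 9.91 to 10.88 over Isl1-KO. WT replicate 1 stood apart by acinar RNA. Over the 29 of 30 acinar markers in the table it averaged 9.995, while WT replicates 2 to 5 averaged 1.31 to 1.79, Ldb1-KO libraries 1.90 to 5.71 and Isl1-KO libraries 1.39 to 4.38. The results on the disallowed genes are therefore given with and without WT replicate 1.

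Of the 8 disallowed genes with a row, 4 passed the minimum mean normalised value of 1 and were tested (Oat, Itih5, Mgst1 and Igfbp4). Among those tested, Oat and Itih5 were higher and Mgst1 was lower in both knockout groups than in WT. In Ldb1-KO against WT, 10.6% of the 13501 genes tested rose and 11.0% fell at an adjusted p below 0.05. In Isl1-KO against WT, 7.02% rose and 8.39% fell. Set beside those shares, 2 members rose and 1 fell in each comparison. Both comparisons use the same WT libraries, so they are not independent of each other. Without WT replicate 1, 3 members rose and 1 fell in Ldb1-KO, where 8.57% and 9.27% of all genes did, and 2 rose and 1 fell in Isl1-KO, where 5.19% and 6.32% did. In the authors' deposited table, at an FDR below 0.05, the same 3 members were called in both comparisons, where 5.07% of 21913 genes rose and 6.79% fell in Ldb1-KO and 3.41% rose and 5.75% fell in Isl1-KO. A member passes the minimum more easily where 1 group is high, so these counts do not describe all 10 disallowed genes. The labels describe bulk sorted cells, in which fewer cells of a type and less RNA per cell cannot be told apart.

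The promoter windows of the 3 genes that differed from WT in both knockout groups are printed here, since it is their level that moved. Each is the 250 bases before a RefSeq transcript start in mouse build GRCm38.p6, 5′ to 3′ on the gene's strand, from chr7:132576399-132576648 (minus) for Oat, chr2:10153293-10153542 (plus) for Itih5, and chr6:138140277-138140526 and chr6:138141337-138141586 (both plus) for the 2 annotated starts of Mgst1. Capitals mark TAAT on either strand (read as ATTA on the other), the core letters bound by many homeodomain proteins, and CANNTG, the E-box letters bound by basic helix-loop-helix proteins.
Oat: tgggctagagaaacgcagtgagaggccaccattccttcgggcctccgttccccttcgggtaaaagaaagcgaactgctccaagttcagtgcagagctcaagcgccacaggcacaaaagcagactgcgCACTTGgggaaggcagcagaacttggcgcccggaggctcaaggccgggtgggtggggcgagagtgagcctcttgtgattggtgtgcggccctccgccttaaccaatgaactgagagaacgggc
Itih5: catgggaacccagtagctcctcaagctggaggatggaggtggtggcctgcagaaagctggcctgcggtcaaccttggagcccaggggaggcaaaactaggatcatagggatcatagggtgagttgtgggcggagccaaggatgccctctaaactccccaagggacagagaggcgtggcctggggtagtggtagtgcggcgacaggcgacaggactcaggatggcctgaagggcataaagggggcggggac
Mgst1 start 1: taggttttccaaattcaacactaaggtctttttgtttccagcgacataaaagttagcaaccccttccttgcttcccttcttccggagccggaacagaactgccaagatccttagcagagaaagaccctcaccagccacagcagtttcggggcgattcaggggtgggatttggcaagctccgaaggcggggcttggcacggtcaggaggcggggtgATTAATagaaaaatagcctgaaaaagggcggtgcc
Mgst1 start 2: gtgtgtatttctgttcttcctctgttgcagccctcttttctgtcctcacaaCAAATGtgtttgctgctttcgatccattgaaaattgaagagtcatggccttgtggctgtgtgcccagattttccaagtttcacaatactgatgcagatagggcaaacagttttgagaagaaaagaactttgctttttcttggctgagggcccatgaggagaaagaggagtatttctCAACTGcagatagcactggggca
Oat held 1 CANNTG and no TAAT. Itih5 held neither. The first Mgst1 start held 2 overlapping TAAT matches in ATTAAT and no CANNTG, and the second held 2 CANNTG and no TAAT. Of 32851 mouse promoter windows of the same length, 54.9% held TAAT and 66.2% held CANNTG on either strand. The expression row for Mgst1 does not separate its starts.

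**Figure D1:**
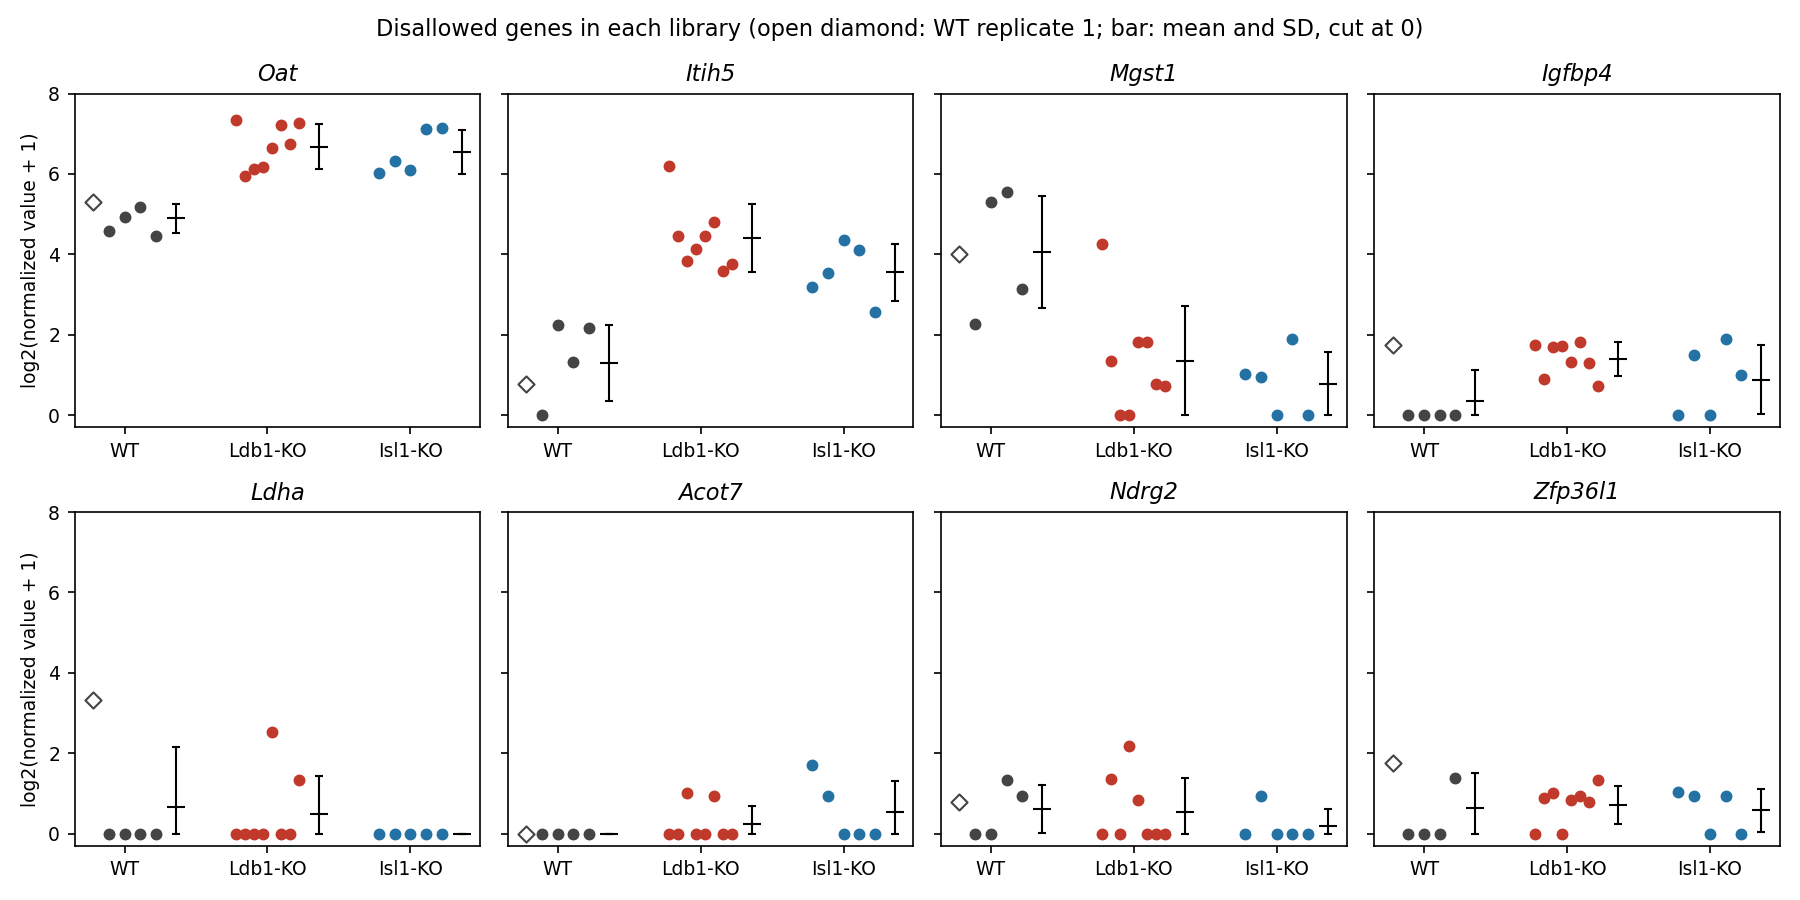
Log2 level of the disallowed genes with a row in each of the 18 libraries, by group, with each library as 1 point, WT replicate 1 as an open diamond, and the group mean and SD (cut at 0) as bars. Oat and Itih5 lie higher in both knockout groups than in WT with no overlap, and Mgst1 lies lower apart from Ldb1-KO replicate 1.

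Oat encodes ornithine aminotransferase, the mitochondrial enzyme that links ornithine with glutamate semialdehyde and so with proline and glutamate. Its log2 levels in WT replicates 1 to 5 were 5.31, 4.59, 4.94, 5.17 and 4.45. In the 8 Ldb1-KO libraries they ran from 5.95 through a median of 6.69 to 7.35, and in Isl1-KO replicates 1 to 5 they were 6.02, 6.33, 6.10, 7.11 and 7.13. Every knockout library lay above every WT library. Among all genes tested, groups separated without overlap in this direction for 4.89% in Ldb1-KO and for 4.47% in Isl1-KO. Oat was higher by 1.79 on the log2 scale in Ldb1-KO than in WT (SE 0.26, 3.46-fold, adjusted p = 1.45e-05). In Isl1-KO the difference from WT was 1.65 (SE 0.29, 3.14-fold, adjusted p = 0.000308). Without WT replicate 1 the differences were 1.89 (adjusted p = 2.43e-05) and 1.75 (adjusted p = 0.000369), so neither rests on that library. In the 11 libraries with an acinar mean of 3 or less (4 WT, 3 Ldb1-KO and 4 Isl1-KO) they were 2.09 (adjusted p = 2.60e-05) and 1.61 (adjusted p = 0.000264). Isl1-KO replicates 4 and 5 alone gave 2.23 and replicates 1 to 3 alone gave 1.26 (adjusted p = 0.00527). The spread of Oat within Isl1-KO (SD 0.54) was close to that within Ldb1-KO (SD 0.56). In the authors' deposited table the log2 fold changes were 1.80 (FDR 5.96e-09) and 1.60 (FDR 1.88e-06).

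Itih5 encodes a heavy chain of the inter-α-trypsin inhibitor family, secreted proteins that attach to hyaluronan in the extracellular matrix. It was near the detection floor in WT, at 0.78, 0, 2.23, 1.32 and 2.17 in replicates 1 to 5, which is at most 4 steps of the scale. In Ldb1-KO it ran from 3.58 through a median of 4.29 to 6.21, and in Isl1-KO replicates 1 to 5 it was 3.18, 3.53, 4.35, 4.11 and 2.57. Again no knockout library reached down to the WT range. The difference from WT was 3.10 in Ldb1-KO (SE 0.44, 8.60-fold, adjusted p = 1.02e-05) and 2.25 in Isl1-KO (SE 0.48, 4.75-fold, adjusted p = 0.0024). Without WT replicate 1 it was 2.97 (adjusted p = 6.07e-05) and 2.12 (adjusted p = 0.00799). In the 11 low-acinar libraries it was 2.50 (adjusted p = 0.0027) and 2.36 (adjusted p = 0.00306), and the direction held in each. With Isl1-KO replicates 4 and 5 alone the difference was 2.04 and no longer passed the test (adjusted p = 0.0671). The authors' deposited table gave 3.23 (FDR 7.28e-10) and 2.37 (FDR 3.91e-05). The mean level of the 9 mesenchyme markers ran from 0.27 to 0.91 in WT, 0 to 0.64 in Ldb1-KO and 0 to 0.22 in Isl1-KO. Col1a1 and Des were at 0 in every Ldb1-KO library, and Col1a1, Col1a2, Dcn, Pdgfrb, Des and Thy1 in every Isl1-KO library. Col3a1, the marker of this list that was tested, lay at 2.30 ± 0.83 in WT, 1.11 ± 1.16 in Ldb1-KO (adjusted p = 0.105) and 0.20 ± 0.45 in Isl1-KO (adjusted p = 0.0142). The part of mesenchymal RNA in the Itih5 level was not tested.

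Mgst1 encodes a membrane-bound glutathione S-transferase that also reduces lipid peroxides. It was the member that was detected in WT and low in the knockouts, the opposite direction to Oat and Itih5. WT replicates 1 to 5 were at 4.02, 2.27, 5.31, 5.56 and 3.15. The Ldb1-KO libraries ran from 0 through a median of 1.07 to 4.25, and Isl1-KO replicates 1 to 5 were at 1.03, 0.94, 0, 1.90 and 0. Of the knockout libraries only Ldb1-KO replicate 1 reached the WT range, so Ldb1-KO overlapped WT and Isl1-KO did not. Groups separated downward without overlap for 5.89% of genes in Ldb1-KO and 6.22% in Isl1-KO, and for 6.64% and 7.08% without WT replicate 1. The difference was -2.72 in Ldb1-KO (SE 0.63, 6.57-fold lower, adjusted p = 0.00285, below the WT mean in 7 of 8 libraries) and -3.28 in Isl1-KO (SE 0.70, 9.74-fold lower, adjusted p = 0.00233). Without WT replicate 1 it was -2.73 (adjusted p = 0.0074) and -3.30 (adjusted p = 0.00563), and with the 11 low-acinar libraries -2.96 (adjusted p = 0.00738) and -3.10 (adjusted p = 0.00378). Leaving out Ldb1-KO replicate 1 widened the difference to -3.13 (adjusted p = 0.00015). With Isl1-KO replicates 4 and 5 alone it was -3.11 and missed the threshold (adjusted p = 0.0635). The authors' deposited table gave -2.47 (FDR 4.43e-05) and -3.29 (FDR 1.30e-06).

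**Figure D2:**
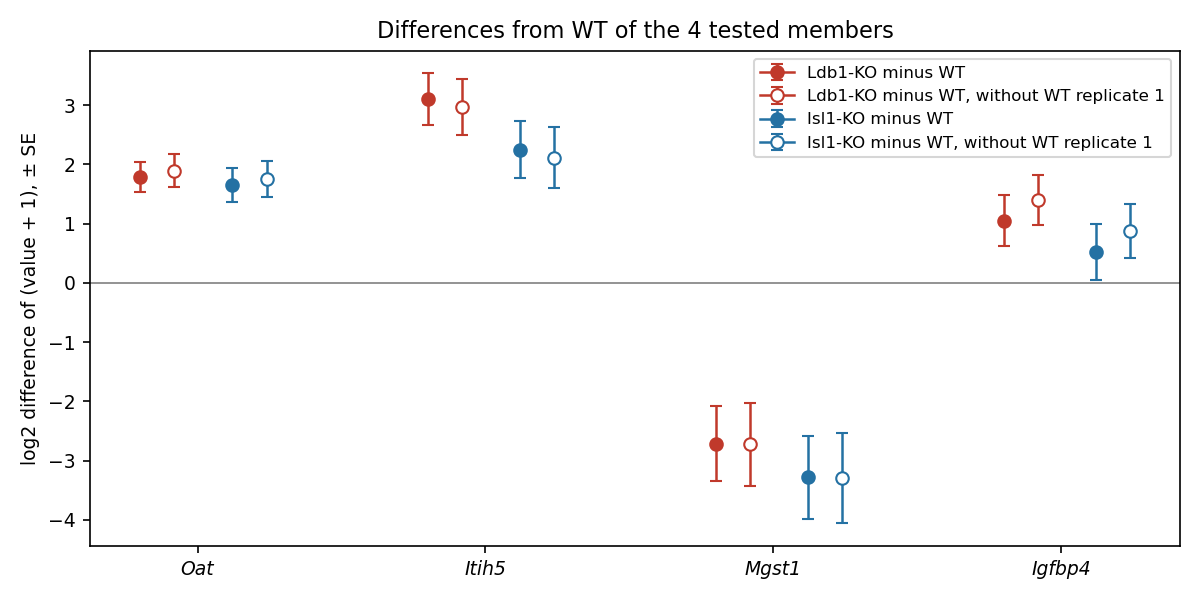
Log2 difference from WT of the tested disallowed genes in Ldb1-KO and Isl1-KO, with 1 SE either side, with all WT libraries (filled) and without WT replicate 1 (open). Oat and Itih5 lie above 0 and Mgst1 below 0 in both groups, and Igfbp4 moves from 1.05 to 1.40 in Ldb1-KO when WT replicate 1 is left out.

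Igfbp4, a secreted protein that binds insulin-like growth factors, sat at the floor of the assay, with 0 to 3 steps in any library. WT replicates 1 to 5 were at 1.75, 0, 0, 0 and 0, so WT replicate 1 alone held the transcript. All 8 Ldb1-KO libraries were above 0, from 0.72 through a median of 1.51 to 1.82, and Isl1-KO replicates 1 to 5 were at 0, 1.49, 0, 1.90 and 1.0. The difference of 1.05 between Ldb1-KO and WT (SE 0.43) did not pass (adjusted p = 0.0836), although an exact permutation test over libraries, two-sided and unadjusted, gave p = 0.0186. Without WT replicate 1 the difference was 1.40 and passed (adjusted p = 0.0223), with no overlap between groups. Such separation held for 5.54% of all genes in this direction (5.31% in Isl1-KO, where Igfbp4 overlapped). Every remaining WT value was then 0, so any value above 0 in each Ldb1-KO library separates the groups. Igfbp4 also met the minimum of 1 only through the knockout groups. Its mean normalised value was 0.471 in WT, 1.73 in Ldb1-KO and 1.106 in Isl1-KO. With the 11 low-acinar libraries, only 3 of them Ldb1-KO, the difference was 1.11 and did not pass (adjusted p = 0.277). Isl1-KO differed from WT by 0.53 (adjusted p = 0.5), and by 0.88 without WT replicate 1 (adjusted p = 0.245). In the authors' deposited table Igfbp4 had an FDR of 0.427 and 0.892. Igfbp4 in Ldb1-KO thus passed in some settings and not in others, at levels of a few reads. With all WT libraries kept it also passed with a pseudocount of 0.1 (adjusted p = 0.0342) and without the trend and robust settings (adjusted p = 0.0441).

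The other 4 disallowed genes with a row were too low to test. Ldha, the lactate dehydrogenase A subunit that reduces pyruvate, was listed at 0 in 15 of 18 libraries. It reached 3.31 (12 steps) in WT replicate 1, 2.53 (5 steps) in Ldb1-KO replicate 5 and 1.32 (2 steps) in Ldb1-KO replicate 8. No Isl1-KO library held it. Of the WT libraries, the one with Ldha was the one with the high acinar mean. In Ldb1-KO, replicates 5 and 8 had low acinar means (1.90 and 2.47), and replicates 2 and 6, with 5.71 and 4.89, held no Ldha. The part of acinar RNA in the Ldha value was not tested. Acot7, an acyl-CoA thioesterase, was at 0 in 14 libraries, including every WT library, and reached at most 2 steps. Ndrg2, of the N-myc downstream-regulated family, was at 0 in 11 libraries and reached 3 steps in Ldb1-KO replicate 4. Zfp36l1, an RNA-binding protein that promotes decay of AU-rich mRNAs, was at 0 in 7 libraries and reached 3 steps in WT replicate 1. None of these 4 was called when the minimum was dropped, nor in the authors' deposited table. The lowest adjusted p among the 4 without the minimum was 0.434, for Acot7 in Isl1-KO.

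**Figure D3:**
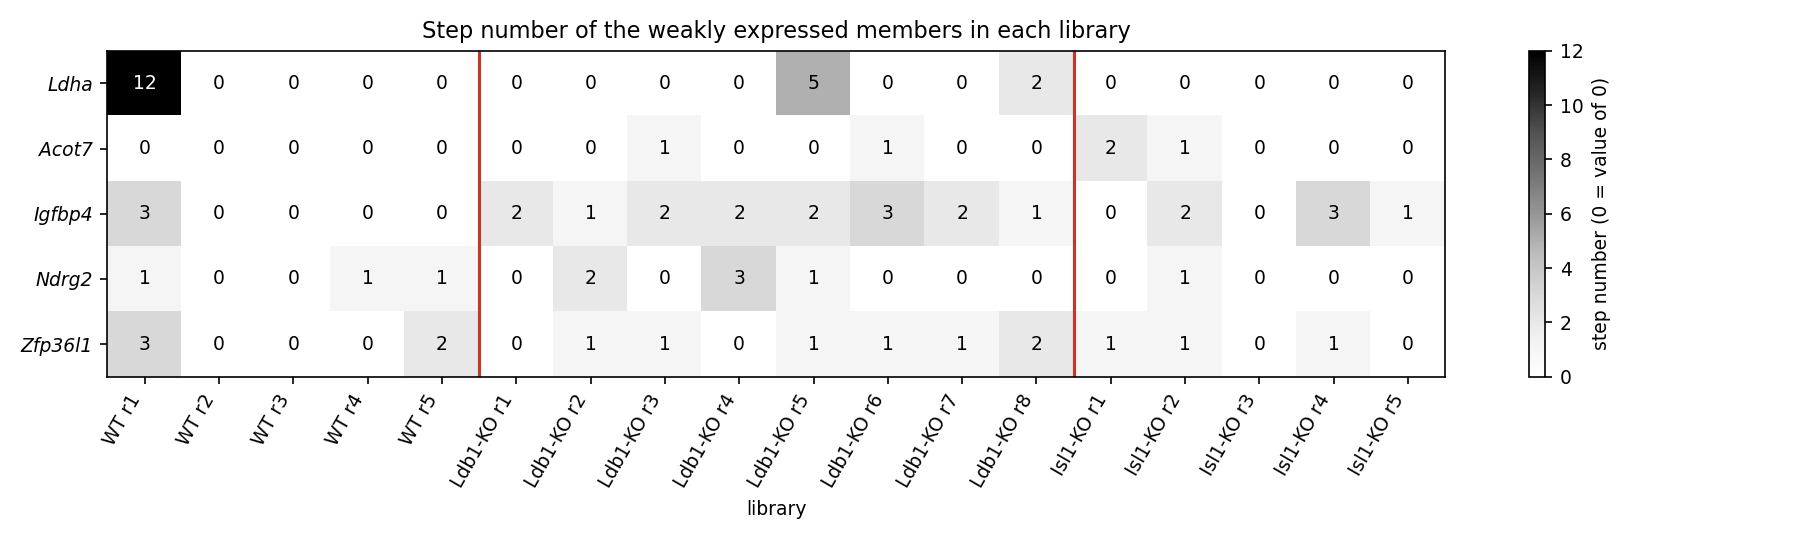
Steps above 0, read as reads, of the disallowed genes near the floor in each of the 18 libraries. The Ldha value of 12 steps in WT replicate 1 stands apart, and Igfbp4 is above 0 in all 8 Ldb1-KO libraries.

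The low value of Ldha is uncertain for a further reason. RefSeq names 3 Ldha pseudogenes, which were counted by name and not compared in sequence. Reads can be shared between a gene and close copies of it, and the sources used here do not give the counting rule. Values of other genes that nearly all cells transcribe are given here, chosen after they were seen. Gapdh (3 named pseudogenes) had a median log2 level of 4.02 and Ppia (60 named) 2.92. Actb (1 named) had 10.51 and Hprt (0 named) 9.59. The values are not per length, so these levels are not ranked against each other or against Ldha. The part of shared reads in the Ldha value was not tested. One pseudogene is named for Zfp36l1 and none for the other members.

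Between the knockout groups, none of the 4 tested members differed in limma at an adjusted p below 0.05, where 13.3% of all genes did (6.96% with the higher level in Ldb1-KO and 6.31% with the lower), and 0 of the 4 had an unadjusted limma p below 0.05. In the authors' deposited table Itih5 had an unadjusted p of 0.0176 in this comparison (FDR 0.166). Oat was higher in Ldb1-KO than in Isl1-KO by 0.14 (SE 0.26, adjusted p = 0.769), with 2 SE either side spanning -0.38 to 0.66. The interval was -0.02 to 1.73 for Itih5 around 0.86, and -0.70 to 1.83 for Mgst1 around 0.57. These intervals leave room for differences of more than 1 log2 unit in Itih5 and Mgst1, so equal levels are not shown. The order of the means was WT, Isl1-KO, Ldb1-KO for Oat and Itih5, and Isl1-KO, Ldb1-KO, WT for Mgst1, with the knockout groups overlapping in each of the 3. For Itih5, all 8 Ldb1-KO libraries lay above the Isl1-KO mean.

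The duct and α-cell marker means lay mostly higher in the knockout groups than in WT. The δ-, PP- and ε-cell, endothelial and immune means overlapped WT. The mean over the 10 duct markers ran from 2.93 to 3.90 in WT (2.93 to 3.19 without replicate 1), 3.90 to 4.29 in Ldb1-KO and 3.52 to 4.37 in Isl1-KO. The mean over the α-cell markers in the table (5 of 6) ran from 5.07 to 5.57 in WT, 6.11 to 7.42 in Ldb1-KO and 5.62 to 6.82 in Isl1-KO. The δ-, PP- and ε-cell markers ran from 4.39 to 5.14, 4.90 to 6.49 and 3.83 to 5.76. In the duct, α-cell and δ-, PP- and ε-cell lists the group medians ran in the order WT, Isl1-KO, Ldb1-KO. The Oat and Itih5 means had that order too. Endothelial markers ran from 0.95 to 2.22 in WT, 0.57 to 1.91 in Ldb1-KO and 0.91 to 1.35 in Isl1-KO, and immune markers from 1.31 to 2.30, 0.73 to 2.65 and 1.11 to 1.49. The part of duct or other endocrine RNA in the levels of Oat, Itih5 and Mgst1 was not tested.

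**Figure D4:**
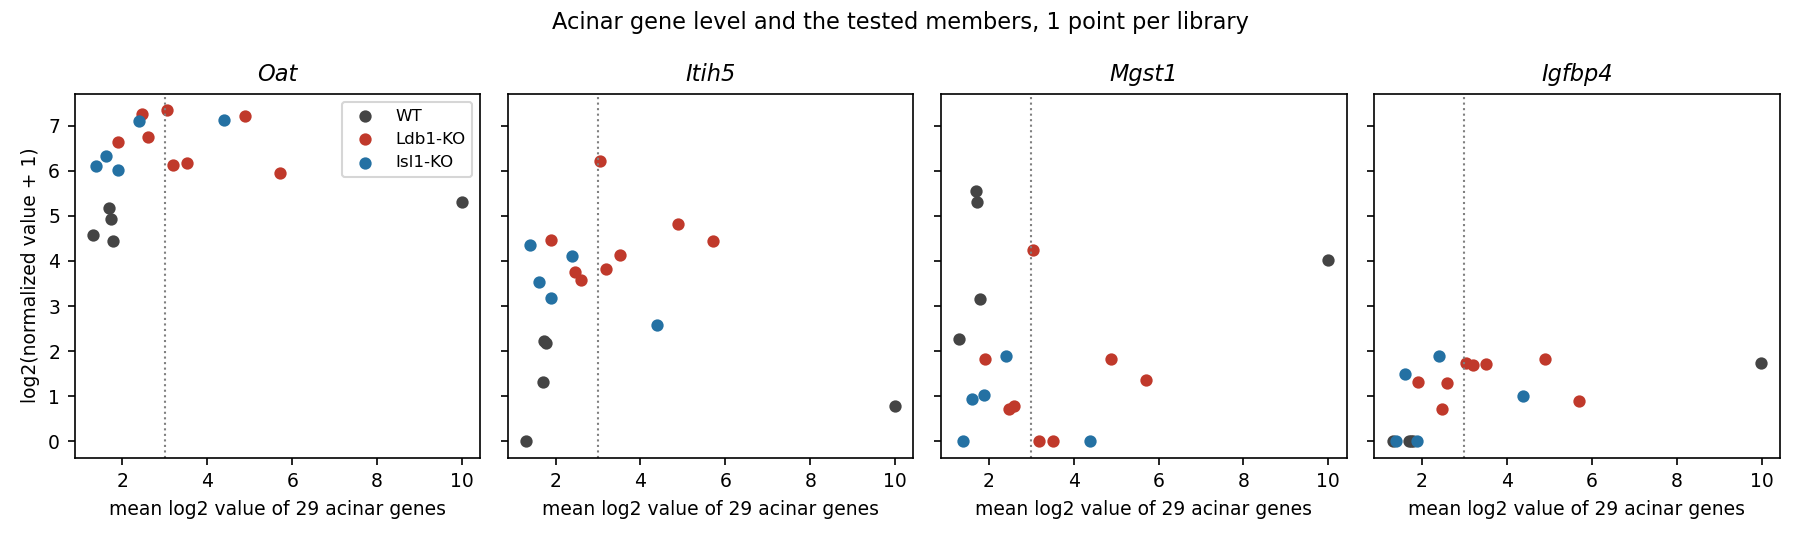
Log2 level of Oat, Itih5, Mgst1 and Igfbp4 against the mean log2 level of the acinar markers in each of the 18 libraries, coloured by group, with a dotted line at 3. WT replicate 1, at 9.995 on the acinar axis, lies below every knockout library for Oat and Itih5, and is the WT library with Igfbp4 above 0.

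Genes whose level followed a member most closely over the 18 libraries were found by Pearson correlation, as a description that the 3 groups and shared libraries shape. For Oat they were Gpx3 (r = 0.941) and Errfi1 (r = 0.920). For Itih5 they were 2810442I21Rik (r = 0.924) and Ppfibp1 (r = 0.917), and for Mgst1 Orc6 (r = 0.875) and Plcz1 (r = 0.862).

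Further genes of the members' pathways were taken from lists chosen with earlier results known. Their counts stand beside the shares of all genes tested, of which 10.6% rose and 11.0% fell in Ldb1-KO and 7.02% rose and 8.39% fell in Isl1-KO, and counts near those shares say nothing particular about a list. Over all genes tested the median difference from WT was -0.013 in Ldb1-KO and -0.029 in Isl1-KO. Of 39 called differences from WT in the pathway genes named below, 35 kept their call without WT replicate 1, the exceptions being Gas6 in Ldb1-KO and Ldhb, Acot9 and Zfp36l2 in Isl1-KO. Of 16 other disallowed or repressed genes, 15 were in the table and 9 were tested, and none rose in either knockout group, a count too small to set apart from those shares. Mylk, myosin light chain kinase, and Gas6, a ligand of TAM receptors, fell in Ldb1-KO by 1.69 (adjusted p = 0.0239) and by 1.10 (adjusted p = 0.0436) on the log2 scale. The Mylk call was lost without WT replicate 3 (adjusted p = 0.0565) or 4 (adjusted p = 0.0677). It was also lost with the 11 low-acinar libraries (adjusted p = 0.143), with a pseudocount of 0.1 (adjusted p = 0.0556) and without the minimum (adjusted p = 0.0684). The Gas6 call was lost on leaving out any of 9 single libraries, and without WT replicate 1 its adjusted p was 0.151. None was called in Isl1-KO. The median difference over the 9 tested was -0.06 and -0.12.

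Around Ldha and Slc16a1, 26 of 29 genes of lactate, pyruvate and NADH shuttling were tested, and 2 rose and 6 fell in each knockout group (median difference -0.0945 and -0.315). Pdk4, a kinase that inhibits pyruvate dehydrogenase, rose from 0.39 ± 0.55 in WT to 4.30 ± 1.33 in Ldb1-KO (adjusted p = 3.78e-06) and 3.23 ± 0.61 in Isl1-KO (adjusted p = 0.00119). In WT it was near the floor, at 0 in 3 of the 5 libraries, and it met the minimum mean value of 1 only through the knockout groups. The Pdk4 call in Isl1-KO was lost with a pseudocount of 10 (adjusted p = 0.157) and with Isl1-KO replicates 4 and 5 alone (adjusted p = 0.0734). Bsg, the chaperone that carries MCT1 to the membrane, rose by 1.34 (SE 0.17, adjusted p = 3.09e-06) and 0.65 (SE 0.19, adjusted p = 0.0242), and Emb, a related chaperone, fell by 0.84 (adjusted p = 4.6e-07) and fell by 0.73 (adjusted p = 3.1e-05) on the log2 scale. The Bsg call in Isl1-KO was lost without Isl1-KO replicate 4 (adjusted p = 0.0576), WT replicate 2 (adjusted p = 0.0582) or WT replicate 4 (adjusted p = 0.0611). It was also lost without the minimum (adjusted p = 0.085) and with Isl1-KO replicates 1 to 3 alone (adjusted p = 0.114). Me1, malic enzyme, fell by 0.94 on the log2 scale in Ldb1-KO (adjusted p = 0.00374) and fell by 1.34 in Isl1-KO (adjusted p = 0.000713). Ldhb, the other main lactate dehydrogenase subunit, was named after its values were seen. It lay at 5.34 ± 0.38 in WT, 4.67 ± 0.54 in Ldb1-KO and 4.55 ± 0.21 in Isl1-KO (adjusted p = 0.0498 and 0.0495). Those calls were lost under 19 of 28 and 22 of 30 alternatives.

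Around Oat, 18 of 20 genes of ornithine, proline and polyamine metabolism were tested. In Ldb1-KO 2 rose and 3 fell, and in Isl1-KO none rose and 1 fell (median difference -0.233 and -0.29). Aldh18a1, which makes the semialdehyde from glutamate, fell from 9.19 ± 0.25 in WT to 7.84 ± 0.24 in Ldb1-KO (adjusted p = 2.74e-08). Pycr1, which reduces it further to proline, fell from 6.08 ± 0.41 to 4.09 ± 0.45 (adjusted p = 5.52e-07). Sat1, a polyamine acetyltransferase, rose from 6.31 ± 0.29 to 8.01 ± 0.26 (adjusted p = 7.16e-07). Amd1, which supplies the propylamine donor for polyamines, fell by 0.76 on the log2 scale in Ldb1-KO (adjusted p = 5.95e-05) and fell by 0.53 in Isl1-KO (adjusted p = 0.00997, lost with Isl1-KO replicates 4 and 5 alone at 0.283). The Ldb1-KO and Isl1-KO groups differed in Aldh18a1 by -1.09 (adjusted p = 6e-06), in Pycr1 by -1.68 (adjusted p = 4.1e-05) and in Sat1 by 1.15 (adjusted p = 0.000424, lost with Isl1-KO replicates 4 and 5 alone at 0.195), while Oat differed by 0.14.

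**Figure D5:**
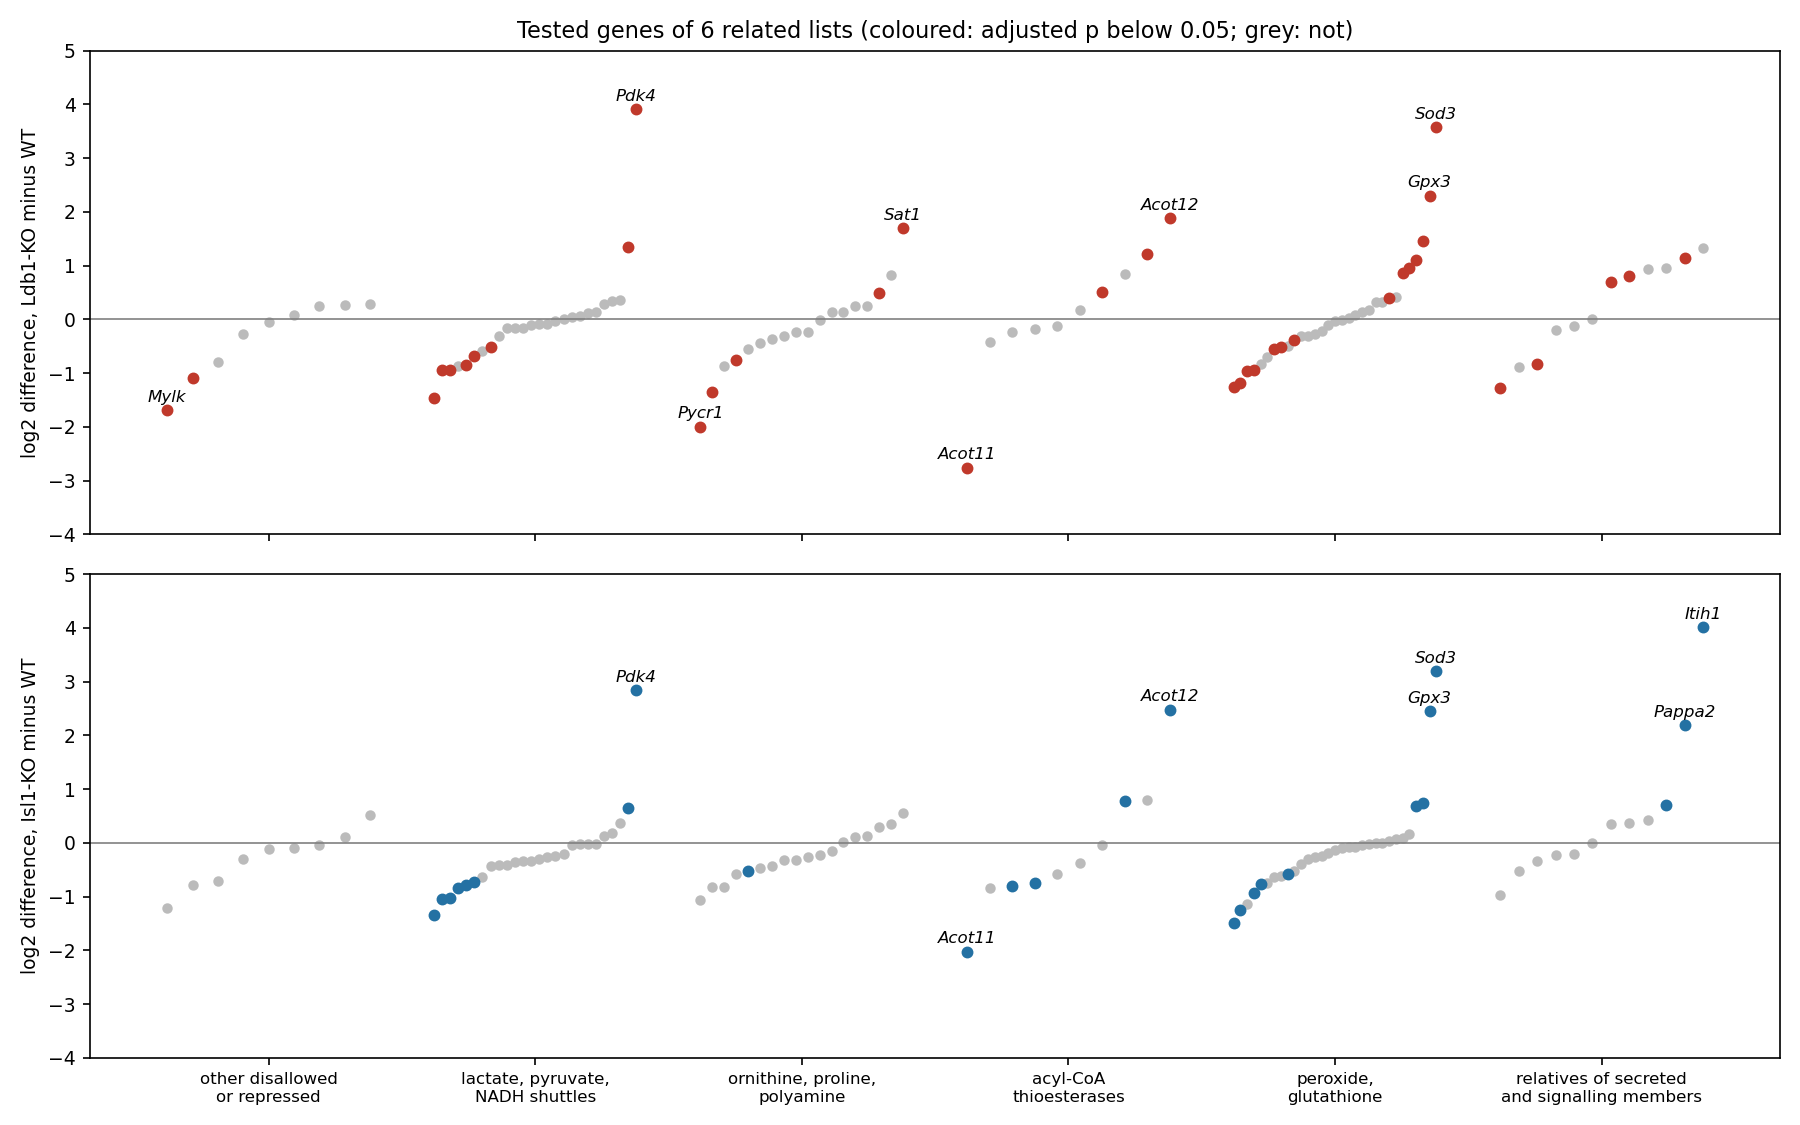
Log2 difference from WT of the tested genes in each of 6 pathway lists, for Ldb1-KO and Isl1-KO, with each gene as 1 point and genes called by limma coloured. Called genes lie on both sides of 0 in the lactate, thioesterase and peroxide lists in both groups.

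Around Acot7, 10 of 14 acyl-CoA thioesterases were tested, with 3 higher and 1 lower in Ldb1-KO and 2 higher and 3 lower in Isl1-KO (median difference 0.024 and -0.484). Acot11, at 9.76 ± 0.35 in WT, fell by 2.76 on the log2 scale in Ldb1-KO (SE 0.15, adjusted p = 3.43e-12) and fell by 2.03 in Isl1-KO (SE 0.16, adjusted p = 5.54e-09). Acot12, a cytosolic acetyl-CoA hydrolase, rose by 1.89 (adjusted p = 0.000515) and by 2.48 (adjusted p = 0.000174). Acot9, a mitochondrial thioesterase, rose by 1.22 in Ldb1-KO (adjusted p = 0.000599) and 0.78 in Isl1-KO (adjusted p = 0.0497). The Acot9 call was lost with the 11 low-acinar libraries in Ldb1-KO (adjusted p = 0.0657) and under 22 of 30 alternatives in Isl1-KO. Acot13 fell by 0.75 on the log2 scale in Isl1-KO (adjusted p = 0.006), a call lost with Isl1-KO replicates 4 and 5 alone (adjusted p = 0.157).

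Around Mgst1 and Cat, 31 of 35 genes of peroxide and glutathione defence were tested, and the direction was mixed. In Ldb1-KO 7 rose and 7 fell, and in Isl1-KO 4 rose and 5 fell (median difference -0.0347 and -0.143). Gpx3, a secreted glutathione peroxidase, rose from 8.14 ± 0.62 to 10.45 ± 0.60 (adjusted p = 9.3e-06) and 10.59 ± 0.48 (adjusted p = 3.47e-05). Sod3, extracellular superoxide dismutase, was listed at 0 in every WT library and lay at 3.58 ± 0.85 and 3.19 ± 1.04 in the knockout groups (adjusted p = 1.23e-06 and 5.35e-05). With WT at 0, Sod3 met the minimum mean value of 1 only through the knockout groups. Gstz1, which isomerises maleylacetoacetate, rose by 0.96 in Ldb1-KO (adjusted p = 1.02e-05) and 0.69 in Isl1-KO (adjusted p = 0.00263). Txn2, mitochondrial thioredoxin, fell by 0.97 on the log2 scale in Ldb1-KO (adjusted p = 0.00337) and fell by 1.49 in Isl1-KO (adjusted p = 0.00026).

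Relatives of Itih5, Igfbp4, Ndrg2 and Zfp36l1 made up the last list, of which 12 of 24 were tested. In Ldb1-KO 3 rose and 2 fell, and in Isl1-KO 3 rose and none fell (median difference 0.354 and 0.181). Igfbp7 rose by 1.15 (adjusted p = 1.79e-07) and Ndrg1 by 0.70 (adjusted p = 0.000102) in Ldb1-KO, and Igfbp5 fell by 1.28 on the log2 scale (adjusted p = 0.00118). In Isl1-KO, Itih1, another heavy chain of the Itih5 family, rose from 1.61 ± 1.12 to 5.62 ± 1.21 (adjusted p = 7.87e-06), and Ldb1-KO differed from it by -3.07 (adjusted p = 0.000126). Pappa2, a protease of IGF-binding proteins, rose by 2.19 in Isl1-KO (adjusted p = 0.0174), a call lost with Isl1-KO replicates 4 and 5 alone (adjusted p = 0.293). Zfp36l2 rose by 0.80 in Ldb1-KO (adjusted p = 0.00565) and 0.70 in Isl1-KO (adjusted p = 0.0377), the latter lost under 10 of 30 alternatives, among them leaving out any of 6 single libraries.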

How the data were processed

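RNA-seq of sorted β-cells was analysed in 18 libraries of 3 groups. The authors' log2 fold changes are named so in the deposited table, per the file headers. The unit of the deposited values per library is not stated there. From the values they read as log2 of a count plus 1, made alike over libraries by quantile normalisation, and the sources used here do not state how the authors normalised them. The submitters' processing notes name HOMER, edgeR and mm9. The p-values and FDR values of the authors' deposited table were copied and not recomputed. Total counts cannot be read from these values, so depth is known only through the step per read. Tests of log2(value + 1) used limma 3.58.1 (intensity trend, robust; R 4.3.3), in 1 fit of all groups, for genes with a mean normalised value of at least 1 (13501 of 21913), adjusted by Benjamini-Hochberg at a threshold of 0.05. SE is the moderated error, and an interval is 2 SE either side. Exact permutation tests used scipy 1.17.1. Members and lists were chosen with earlier results of these data known. Named beside the members were up to 3 called genes per list and comparison, by smallest p, and the 2 genes most like each called member. Promoter sequences are from RefSeq (GRCm38.p6), which held all 10 members. Peak lists on mm9 were not used here. Alternatives changed the pseudocount, minimum, libraries, block, moderation, scaling and depth term.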

Additional observations from a re-analysis of the deposited data

Results flagged for a closer look

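In 22 sets of 5 or 8 libraries, each of 1 group and 1 member, 5 had 1 library far from the rest by Dixon's criterion. Chance gives about 1 in 20 where values vary continuously. That rate does not apply to 3 of the 5 (Ldha, Igfbp4 and Ndrg2), where every other library was at 0 and any value above 0 meets the criterion. Ldha stood at 3.314 in WT replicate 1 against 0 in the next library, and Igfbp4 at 1.746 there against 0, and that library also had the highest acinar mean. Ldb1-KO replicate 1 was highest for Mgst1 (4.253, next 1.816) and for Itih5 (6.208, next 4.81). Ndrg2 stood at 0.9444 in Isl1-KO replicate 2, which is 1 step of the scale, against 0 in the others.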

How the results depend on the processing

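Under the alternatives run, Oat, Itih5 and Mgst1 kept their direction against WT in all 180 settings and comparisons and their call in 178. The exceptions were Itih5 (adjusted p = 0.0671) and Mgst1 (adjusted p = 0.0635) with Isl1-KO replicates 4 and 5 alone, where the members higher in Isl1-KO fell to 1 and those lower to 0; that fit has fewer samples. Igfbp4 passed in Ldb1-KO with a pseudocount of 0.1 (adjusted p = 0.0342), without WT replicate 1 and without trend and robust settings (adjusted p = 0.0441), and with the unadjusted permutation test. Leaving out single libraries gave 2 to 3 members higher and 1 lower in Ldb1-KO, 2 higher and 1 lower in Isl1-KO, and 0 and 0 between the knockouts. Between the knockouts Oat turned to -0.10 with the replicate block and -0.44 with Isl1-KO replicates 4 and 5 alone, and Igfbp4 to -0.049 in the latter; the cause was not tested. Ldb1 in Isl1-KO ran from -0.051 (without WT replicate 4) to 0.134 against WT when single libraries were left out, with no call. Over the called differences of the named pathway genes, the call was kept in 1230 of 1335 settings and lost in 105, with no change of direction. Same-numbered libraries correlated in deviation from -0.167 to 0.256 over 15 pairs, 4 above 0.1, and 3 libraries correlated best with their own number, so the numbers do not pair them; the replicate block changed no member's call against WT (Oat 1.55, Itih5 3.32 and Mgst1 -2.57 in Ldb1-KO). The alternatives for LDB1 and ISL1 peaks near gene starts were not run, since no gene starts of mm9 were used here. Values of a few steps limit Ldha, Acot7, Igfbp4, Ndrg2 and Zfp36l1.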
